A study of Mus musculus with 12 samples.

Results

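Interferon-stimulated effector genes are the genes that a cell switches on after an interferon, most often a type I interferon, has bound its receptor. The receptor activates the kinases Jak1 and Tyk2, and the signal is carried to the nucleus by a factor that holds Stat2 and Irf9 and binds interferon-stimulated response elements in promoters. The products act against viruses inside the cell, trim or tag proteins, or leave the cell as signals. A fixed list of 53 mouse genes of this kind, chosen by symbol, was followed through adipocyte differentiation. All 53 were found among the 55487 genes of the deposited expression table, with no symbol repeated, and fell into 11 families. In control cells and in cells depleted of Fto, most of them were high in preadipocytes and fell after the induction of differentiation. The level at the stage after that fall was higher in the Fto-depleted cells for 32 of 51 members tested, where 10.5% of all genes tested were, while a few members, among them Ifitm2, Ifi27 and in the control cells Ifitm3 and Samhd1, had no called fall. Of the 32, Oasl1 is given no weight below. Before induction 14 of the 51 were already higher in the Fto-depleted cells, where 15.9% of all genes were. The change at induction was less negative there for 10 members, where 2.52% of all genes had a higher value.

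The data came from mouse 3T3-L1 cells, fibroblasts that turn into adipocytes when confluent cultures are given MDI medium (IBMX, dexamethasone and insulin). The cells carried a lentiviral hairpin driven by a U6 promoter, shScram in the control line and shFto in the line depleted of Fto, which encodes an enzyme that removes methyl groups from N6-methyladenosine in RNA. Both lines therefore share the vector, its red fluorescent protein and the selection with puromycin, and the sources used here do not say which Fto hairpin the libraries hold or whether a line was a pool or a clone. Fragmented total RNA was sequenced before induction as preadipocytes (Pre), at mitotic clonal expansion after induction (MCE) and at the stage labelled mature adipocytes (Diff), with 2 libraries in each of the 6 groups. The labels do not state that the 2 libraries came from separate cultures, so the p-values measure the spread between these libraries, which may be technical. Values are TPM, a transcript level scaled by gene length and to the library total, which keeps no sequencing depth, so the depth behind each value is unknown. In bulk RNA, fewer cells expressing a gene and less of its RNA per cell cannot be told apart.

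Fto was read in every library as a check of the labels. Fto in shScram stood at 52.7 and 58.3 TPM at Pre, 59.1 and 55.7 TPM at MCE and 73.5 and 70.8 TPM at Diff. Fto in shFto stood at 5.51 and 5.55 TPM at Pre, 6.32 and 6.03 TPM at MCE and 7.47 and 7.05 TPM at Diff. The 6 shFto libraries were all far below the 6 shScram libraries, and the log2 difference was -3.11 ± 0.11 SE, adjusted p = 4.1e-06 at Pre, -3.02 ± 0.11 SE, adjusted p = 2.42e-06 at MCE and -3.15 ± 0.11 SE, adjusted p = 8.89e-07 at Diff (limma across all genes, Benjamini-Hochberg adjustment). Replicate 1 of shScram at Diff carries a treatment entry naming the knockdown while its title names shScram. The title was followed, and its Fto level lay with the shScram libraries. Replicate 1 of shScram at Pre stood apart from its partner, with a correlation of 0.939 across genes where the other 5 groups had 0.99 to 0.993. Mitochondrial transcripts held 14.5% of its TPM and 4.58% to 9.17% of the others, and the largest replicate gap of a tested member there was 2.01 on the log2 scale, against 0.33 to 1.63 in the other groups. The counts of members called in the comparisons that use either library were therefore also taken without it, and are given below.

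Markers of the labelled cell types were read alongside. Of 6 adipocyte markers the summed level was 16.6 to 18.7 TPM in the 4 Pre libraries, and at MCE 276.0 and 290.4 TPM in shScram with 66.1 and 71.9 TPM in shFto. At Diff it was 1216 and 1178 TPM in shScram, beside 167.7 and 143.2 TPM in shFto. The shFto libraries at Diff thus held far less adipocyte marker RNA than the shScram libraries at Diff, with Fabp4 as the most abundant marker of the list. Plin1, a coat protein of lipid droplets, had Diff levels of 36.9 and 37.1 TPM in shScram, beside 2.65 and 2.21 TPM in shFto, and Cd36, a fatty acid transporter, at 148.2 and 151.4 TPM beside 2.71 and 1.24 TPM. These markers go against the label of mature adipocytes for the shFto libraries, which are called by their stage, Diff, here. Adipoq was listed at 0 in all 4 Pre libraries. The 6 fibroblast and preadipocyte markers, led by Col3a1, summed to 2596 TPM or more in every library. Markers of leukocytes, cells that express many of these genes, were at or near 0: of 7 genes, Adgre1 and Cd3e were listed at 0 throughout, and the list summed to 0.607 to 4.06 TPM, mostly Cd68. The 3 endothelial markers summed to 0.651 TPM at most, with Kdr listed at 0 throughout. Proliferation markers (5 genes, led by Top2a) were highest at MCE, where they summed to 702 and 656 TPM in shScram, beside 549 and 525 TPM in shFto.

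The promoters show the sequence element that names this pathway. RefSeq windows on GRCm38.p6, from 250 bases before to 50 bases after the gene start, were at hand for 41 members, and 12 members (Rtp4, Usp18, Mx1, Mx2, Oas1b, Oas2, Ifi27, Ifi27l2a, Parp9, Parp14, Ly6e and Iigp1) had no entry. The core of the interferon-stimulated response element, searched on both strands as GAAA, any 2 bases and GAAA again, was present for 21 of the 41 members (51.22%) and for 3.99% of the 27025 genes with a window. The letters TTCNNNGAA, a second motif whose last bases can overlap the first, were present for 9 of 41 members (21.95%) and 9.55% of all genes. The windows below are read 5′ to 3′ on the strand of the gene, with matches to that core, or to its reverse complement (TTTC, any 2 bases, TTTC), in capitals and overlapping matches joined. Positions count from the gene start as 0. Bst2 (chr8:71537423-71537722, minus strand, matches beginning at -130 and -124) and Ifitm3 (chr7:141010695-141010994, minus strand, at 2 and 19) had the highest levels at Pre among members with the motif, and Ifitm3 is also, by mean TPM over the 12 libraries, the most abundant member without a called fall in shScram, although in the shScram libraries at MCE and Diff Ifitm2 was the higher. Isg15 (chr4:156200769-156201068, minus strand, at -78, -72 and -66), Ifit1 (chr19:34640639-34640938, plus strand, at -104 and -85) and Ifit3 (chr19:34583279-34583578, plus strand, at -156 and -122) were added after their values were seen, because they fell steeply. Samhd1 (chr2:157135047-157135346, minus strand) was added in the same way as a member that did not fall in shScram, and holds no match in this window.
Ifitm3: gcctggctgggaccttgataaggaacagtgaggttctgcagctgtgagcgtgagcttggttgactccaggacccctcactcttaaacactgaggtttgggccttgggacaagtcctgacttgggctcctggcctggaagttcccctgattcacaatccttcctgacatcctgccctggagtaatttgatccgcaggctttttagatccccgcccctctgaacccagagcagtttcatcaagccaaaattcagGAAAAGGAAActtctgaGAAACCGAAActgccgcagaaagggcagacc
Bst2: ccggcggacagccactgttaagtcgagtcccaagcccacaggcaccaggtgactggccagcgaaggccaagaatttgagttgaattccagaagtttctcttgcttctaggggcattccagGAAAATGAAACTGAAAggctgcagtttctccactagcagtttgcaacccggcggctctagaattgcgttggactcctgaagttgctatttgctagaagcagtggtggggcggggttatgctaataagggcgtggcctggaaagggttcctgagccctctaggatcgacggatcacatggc
Isg15: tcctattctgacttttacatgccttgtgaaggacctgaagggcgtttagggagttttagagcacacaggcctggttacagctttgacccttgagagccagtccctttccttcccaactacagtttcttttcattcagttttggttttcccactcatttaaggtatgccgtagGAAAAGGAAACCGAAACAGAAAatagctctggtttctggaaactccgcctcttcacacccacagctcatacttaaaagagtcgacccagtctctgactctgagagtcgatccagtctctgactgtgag
Ifit1: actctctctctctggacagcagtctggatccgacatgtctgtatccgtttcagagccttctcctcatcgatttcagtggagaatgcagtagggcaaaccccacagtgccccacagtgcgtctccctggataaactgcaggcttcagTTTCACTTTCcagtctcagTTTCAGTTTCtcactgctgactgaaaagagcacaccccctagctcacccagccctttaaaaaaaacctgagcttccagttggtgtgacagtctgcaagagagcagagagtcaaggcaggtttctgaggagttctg
Ifit3: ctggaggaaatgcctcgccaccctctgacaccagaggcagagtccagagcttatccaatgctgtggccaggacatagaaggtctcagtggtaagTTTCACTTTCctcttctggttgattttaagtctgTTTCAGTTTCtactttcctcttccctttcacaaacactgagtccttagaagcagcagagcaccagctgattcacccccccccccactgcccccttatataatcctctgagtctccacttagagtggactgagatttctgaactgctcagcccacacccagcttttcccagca
Samhd1: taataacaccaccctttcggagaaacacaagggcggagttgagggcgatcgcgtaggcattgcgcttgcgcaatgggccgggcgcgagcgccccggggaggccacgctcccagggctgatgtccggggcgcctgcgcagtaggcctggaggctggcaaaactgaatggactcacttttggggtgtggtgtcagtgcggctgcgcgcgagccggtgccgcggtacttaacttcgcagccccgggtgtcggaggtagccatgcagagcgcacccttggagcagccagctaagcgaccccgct
Among the tested members in the promoter table, the 20 with the motif had a median log2 change at induction of -3.68 in shScram, from -7.65 to 2.19, and the 19 without it a median of -2.78, from -6.17 to 0.62. The 2 ranges overlap over most of their length, and 18 of the 20 and 15 of the 19 fell, so these letters were found on both sides. The windows printed above do not show this. Oasl2, Ifi44 and Phf11d changed by -6.17, -5.31 and -5.35 in shScram and hold no match. Ifitm2 changed by 2.19 and holds 1.

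Induction was the largest step. The 53 members together held 7385 and 10431 TPM in shScram at Pre, 3634 and 3890 TPM at MCE and 3675 and 3463 TPM at Diff. In shFto the sums were 14031 and 13585 TPM at Pre, 4039 and 3975 TPM at MCE and 6954 and 6421 TPM at Diff. Much of what was left belonged to the Ifitm genes. Without Ifitm1, Ifitm2 and Ifitm3 the sums were 6323 and 8258 TPM at Pre, 1035 and 1035 TPM at MCE and 1436 and 1476 TPM at Diff in shScram. In shFto the same 50 members held 10779 and 10714 TPM at Pre, 1647 and 1675 TPM at MCE and 3473 and 3135 TPM at Diff. So at MCE and at Diff both shFto libraries lay above both shScram libraries, and without the Ifitm genes MCE was the low point of both lines.

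**Figure D1:**
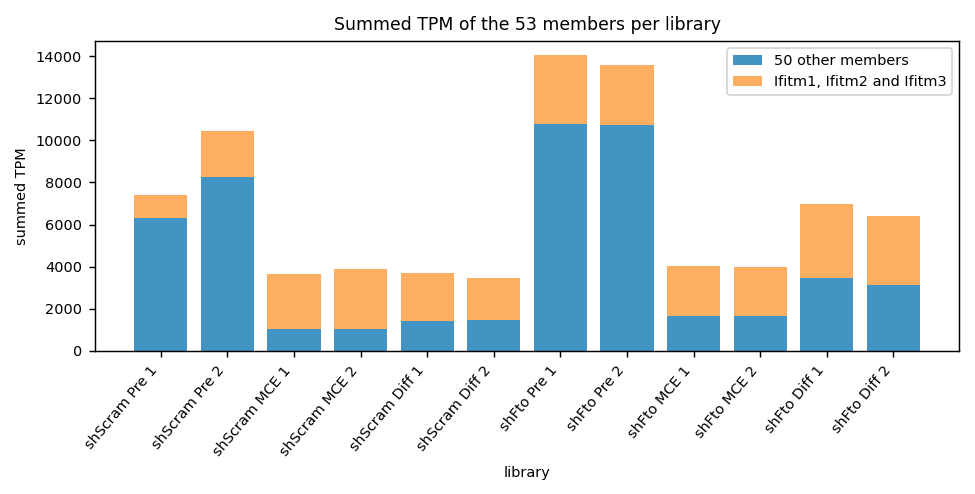
Summed TPM of the 53 members in each of the 12 libraries (y axis, TPM; 1 bar per library), with the 3 Ifitm genes stacked on the 50 other members. The lower bars fall from 6323 or more at Pre to 1035 in both shScram and 1647 and 1675 in the shFto libraries at MCE.

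For the test, values were taken as log2(TPM + 1), on which changes of low genes are understated, and 15968 genes with 1 TPM or more in at least 2 libraries entered 1 limma fit over all 12 libraries. Of the members 51 passed that filter. Slfn5 and Epsti1 did not, and neither exceeded 0.494 TPM in any library. Against Pre, 44 of 51 members fell at MCE in shScram (adjusted p under 0.05), where 26.9% of all genes tested did, and 2 rose (Ifitm2 and Samhd1), where 12.2% of all genes did. In shFto 47 of 51 members fell, against 19.9% of all genes, and none rose by this limma test, where 8.80% of all genes did, nor at an unadjusted p under 0.05 (0 of 51). The median change of the members was -3.32 in shScram and -2.86 in shFto, on the log2 scale, beside -0.17 and -0.18 for all genes tested. Without replicate 1 of shScram at Pre, the 44 members were called again, Ifi35 and Ifitm3 joined them, and 35.3% of all genes were called lower. Leaving it out moved the change in shScram by more than 1.5-fold for 6 of the 51 members (Bst2, Helz2, Ifi27, Ifi35, Ifitm2 and Isg15), in each case downward, and its lone partner was assumed to vary like the other groups. The 5 members without a call in shScram were Ifi35, Ifi27, Ifitm1, Ifitm3 and Oasl1, and the 4 in shFto were Ifi27, Ifitm1, Ifitm2 and Oasl1.

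The downward lean of all genes at induction depends on the scaling. With median-ratio scaling of the TPM values the median of all genes moved from -0.17 to -0.01 in shScram, and the calls over all genes from 4294 lower and 1942 higher to 2929 lower and 3069 higher. In shFto they moved from 3180 lower and 1405 higher to 2324 lower and 2115 higher. The members' medians relative to all genes were -3.15 in shScram and -2.68 in shFto, and with that scaling 43 and 46 of them were still called lower.

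**Figure D2:**
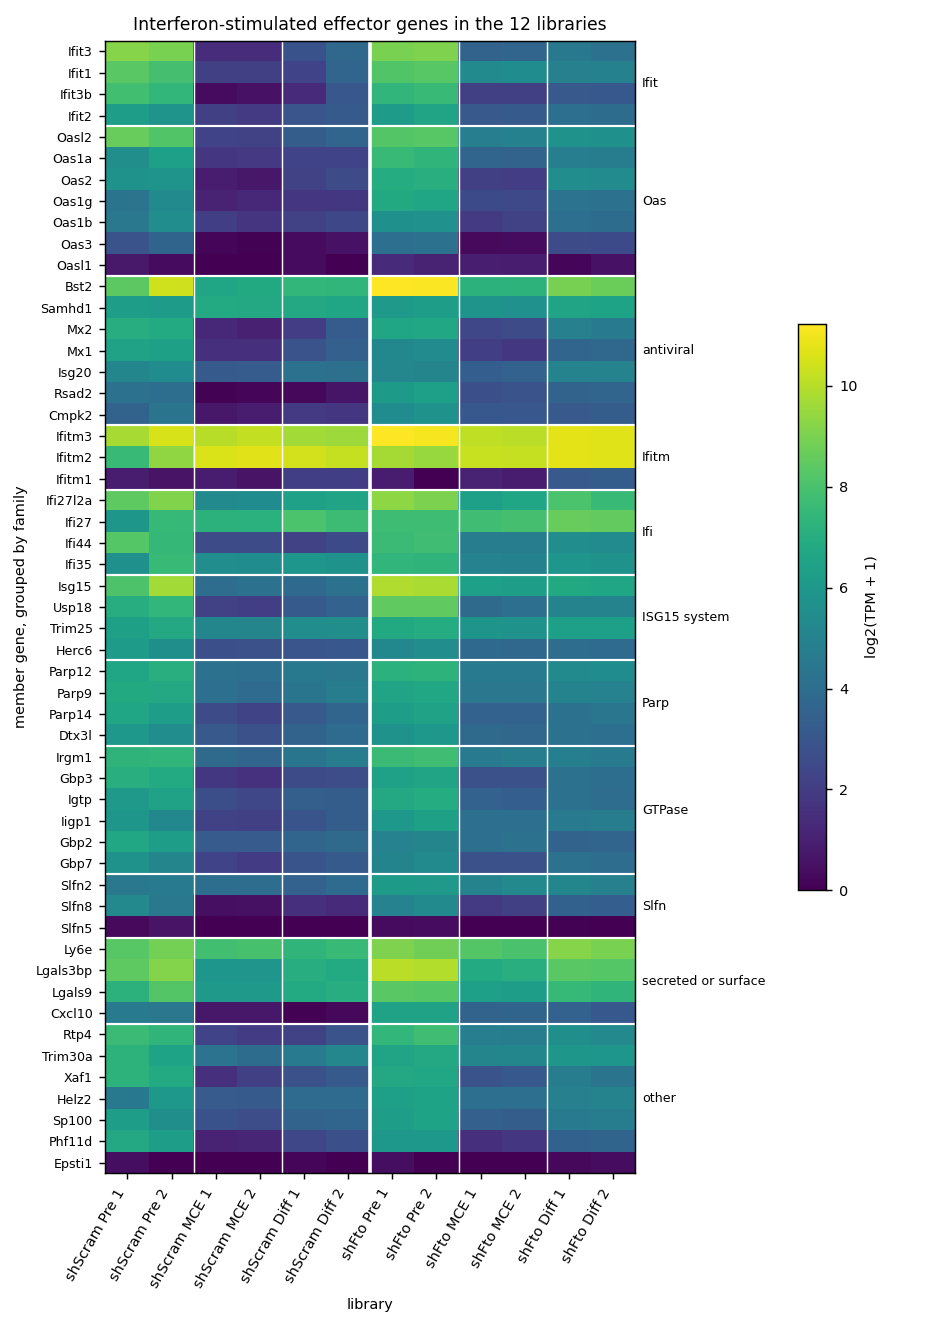
Level of each of the 53 members (rows, grouped by family and ordered by mean level) in the 12 libraries (columns), as log2(TPM + 1) on a colour scale from 0 (dark) to above 11 (yellow). Most rows are bright in the 4 Pre libraries and dark at MCE, while Ifitm2 and Ifitm3 stay bright in every library.

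By the family median on the log2 scale the Ifit family fell furthest, although not in shFto by the percent left, given below. Its proteins bind viral RNA that lacks the marks of host RNA. All 4 members fell in both lines, and the family median was -6.60 in shScram and -4.29 in shFto. The genes lie in 1 cluster on chromosome 19 of GRCm38 (Ifit2 to Ifit1, chr19:34550694-34650009). Levels of Ifit3 in shScram were 587 and 498 TPM at Pre, 1.67 and 1.72 TPM at MCE and 6.15 and 12.7 TPM at Diff. Levels of Ifit3 in shFto were 497 and 528 TPM at Pre, 10.8 and 11.8 TPM at MCE and 22.0 and 17.6 TPM at Diff. The Pre libraries of the 2 lines overlapped, whereas at MCE and at Diff every shFto library was above every shScram library. The change at induction was -7.65 ± 0.26 SE, adjusted p = 4.16e-07 in shScram and -5.39 ± 0.26 SE, adjusted p = 3.1e-06 in shFto. Ifit1 in shScram was measured at 330.3 and 239 TPM at Pre, 3.39 and 3.37 TPM at MCE and 3.78 and 11.6 TPM at Diff. Ifit1 in shFto was measured at 289 and 321 TPM at Pre, 39.2 and 43.4 TPM at MCE and 28.8 and 30.0 TPM at Diff. Ifit1 thus started from a like level in both lines and fell less far in shFto, with -6.01 ± 0.37 SE, adjusted p = 7.05e-06 against -2.86 ± 0.37 SE, adjusted p = 0.000532. Ifit3 and its neighbour Ifit3b share 51.2% and 45.0% of the 50-base words of their transcripts with other genes, mainly with each other, so the split of reads between them is uncertain. Ifit2 and Ifit3b went from 66.2 and 197.9 TPM (group means) at Pre to 3.03 and 0.352 TPM at MCE in shScram.

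Enzymes of the Oas family make the oligoadenylates that switch on RNase L, although not every member does, and Oasl1 is among those that do not. Oas1b is annotated as a polymorphic pseudogene. Of 7 members 6 fell in each line, with family medians of -3.63 in shScram and -3.83 in shFto. Oasl2 in shScram stood at 387 and 287 TPM at Pre, 3.78 and 3.54 TPM at MCE and 8.91 and 11.7 TPM at Diff. Oasl2 in shFto stood at 298 and 315 TPM at Pre, 26.8 and 30.0 TPM at MCE and 52.7 and 48.2 TPM at Diff. Oasl2, the most abundant of the family, fell by 6.17 on the log2 scale in shScram and by 3.39 in shFto, and the shFto libraries lay above the shScram libraries at MCE and Diff without overlap. Oas1a, Oas1g, Oas2 and Oas3 were already higher in shFto at Pre and are described with that comparison. Oasl1 was the exception of the family and was barely expressed. Levels of Oasl1 in shScram were 0.713 and 0.25 TPM at Pre, 0 and 0 TPM at MCE and 0.275 and 0 TPM at Diff. Levels of Oasl1 in shFto were 1.52 and 1.13 TPM at Pre, 0.948 and 0.859 TPM at MCE and 0.147 and 0.441 TPM at Diff. Its level was 1.52 TPM at most and its change at induction was not called in either line, with -0.55 ± 0.22 SE, adjusted p = 0.0742 in shScram and -0.28 ± 0.22 SE, adjusted p = 0.384 in shFto. In shScram it was called as a fall with a pseudocount of 0.1 (-2.41, adjusted p = 0.0291) and without Pre replicate 2 (-0.78, adjusted p = 0.0228). Oas1a and Oas1g share 57.6% and 54.7% of their 50-base words with other genes, mainly each other.

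Among the other direct antiviral effectors, all 7 members fell in shFto, and 6 fell and 1 rose in shScram. Bst2, or tetherin, holds budding virus particles on the cell surface. Bst2 in shScram was measured at 339 and 1366 TPM at Pre, 99.8 and 111 TPM at MCE and 174 and 167 TPM at Diff. Bst2 in shFto was measured at 2348 and 2276 TPM at Pre, 148 and 152 TPM at MCE and 479 and 423 TPM at Diff. The 2 shScram libraries at Pre differed widely and both shFto libraries were above them, while at MCE all 4 libraries lay between 99.8 and 152.5 TPM with shFto again the higher. The change at induction was -2.68 ± 0.49 SE, adjusted p = 0.00318 in shScram and -3.94 ± 0.49 SE, adjusted p = 0.000444 in shFto. Without replicate 1 at Pre the fall in shScram was -3.69 and without replicate 2 it was -1.68, and in a limma fit of the 4 shScram libraries at Pre and MCE alone it was not called (adjusted p = 0.0885). Rsad2, or viperin, makes a chain-ending ribonucleotide from the product of its neighbour Cmpk2. Rsad2 in shScram stood at 17.6 and 15.6 TPM at Pre, 0.0452 and 0.141 TPM at MCE and 0.17 and 0.575 TPM at Diff. Rsad2 in shFto stood at 69.0 and 81.2 TPM at Pre, 5.76 and 6.35 TPM at MCE and 10.9 and 11.6 TPM at Diff. At every stage both shFto libraries were above both shScram libraries, and in shScram after induction Rsad2 was below 1 TPM. Mx1 and Mx2, genes of an antiviral GTPase family, went from means of 85.5 and 121.7 TPM at Pre to 1.92 and 1.21 TPM at MCE in shScram. Mx2 is annotated as a polymorphic pseudogene. Isg20, an exonuclease, kept more of its level, with 39.3 TPM at Pre and 8.44 TPM at MCE as group means in shScram.

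Samhd1, which degrades the deoxynucleotides that viruses and dividing cells use, went the other way in the control line. Levels of Samhd1 in shScram were 74.2 and 70.0 TPM at Pre, 114 and 108 TPM at MCE and 108 and 95.9 TPM at Diff. Levels of Samhd1 in shFto were 65.9 and 78.1 TPM at Pre, 55.3 and 50.1 TPM at MCE and 94.3 and 89.8 TPM at Diff. The lines overlapped at Pre, parted at MCE with shScram above shFto, and came close again at Diff with shScram still the higher. Samhd1 rose at induction in shScram (0.62 ± 0.12 SE, adjusted p = 0.00517) and fell in shFto (-0.44 ± 0.12 SE, adjusted p = 0.028), and the difference between the 2 changes was itself past the threshold (-1.06 ± 0.18 SE, adjusted p = 0.0126, limma). Both changes were small beside those of most members. The fall in shFto was not called with median-ratio scaling (-0.23, adjusted p = 0.227) or quantile normalization (-0.32, adjusted p = 0.108), nor without shFto Pre replicate 2, MCE replicate 1 or MCE replicate 2 (adjusted p = 0.193, 0.0769 and 0.184). The rise in shScram was not called in a fit of its own 4 libraries (adjusted p = 0.146), and the difference between the changes was not called in 4 alternatives (adjusted p = 0.0561 to 0.078).

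The Ifitm proteins sit in membranes and hinder the entry of enveloped viruses. In shScram their changes at induction lay between -0.06 and 2.19 on the log2 scale, and none was called as a fall. Ifitm2 in shScram was measured at 191 and 656 TPM at Pre, 1567 and 1681 TPM at MCE and 1429 and 1219.6 TPM at Diff. Ifitm2 in shFto was measured at 849 and 729 TPM at Pre, 1266 and 1217 TPM at MCE and 1725 and 1651 TPM at Diff. Ifitm2 was lowest at Pre in both lines and higher in every library after induction. It rose in shScram (2.19 ± 0.44 SE, adjusted p = 0.0051) and its change in shFto was not called (0.66 ± 0.44 SE, adjusted p = 0.315). The rise in shScram was 1.31 without replicate 1 at Pre and 3.08 without replicate 2, and was not called in a fit of the 4 libraries of that comparison alone (adjusted p = 0.105). Without either of those Pre libraries the change in shFto, again 0.66, was called as a rise (adjusted p = 0.000336 and 0.000321). Ifitm3 in shScram stood at 870.1 and 1517 TPM at Pre, 1031 and 1173 TPM at MCE and 807 and 764 TPM at Diff. Ifitm3 in shFto stood at 2403 and 2142 TPM at Pre, 1124 and 1082 TPM at MCE and 1748 and 1627 TPM at Diff. Ifitm3 libraries of the 2 lines overlapped at MCE and were apart at Pre and Diff, with shFto the higher. In shScram its change at induction was -0.06 ± 0.23 SE, adjusted p = 0.847, a value that turned to 0.13 with median-ratio scaling. It was called as a fall without replicate 1 at Pre (-0.46, adjusted p = 0.00649) and as a rise without replicate 2 at Pre (0.34, adjusted p = 0.021), so no direction can be given for it. In shFto Ifitm3 fell (-1.04 ± 0.23 SE, adjusted p = 0.0093), a call that was lost without Pre replicate 1, MCE replicate 1 or MCE replicate 2 of shFto (adjusted p = 0.0628, 0.0509 and 0.0621). Levels of Ifitm1 in shScram were 0.833 and 0.486 TPM at Pre, 0.786 and 0.521 TPM at MCE and 3.18 and 3.21 TPM at Diff. Levels of Ifitm1 in shFto were 0.817 and 0 TPM at Pre, 1.2 and 0.831 TPM at MCE and 7.91 and 8.86 TPM at Diff. Ifitm1 was near 1 TPM or below until Diff, where all 4 libraries were higher than every earlier one, and its change at induction in shFto was called as a rise with quantile normalization (0.87, adjusted p = 0.0477) and without Pre replicate 1 (1.01, adjusted p = 0.0208). Of Ifitm2, 48.5% of the 50-base words of its transcript occur in other genes, and 40.9% of its exon bases overlap Gm45717 on the same strand, so its level is uncertain.

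The Ifi family has diverse members, among them mitochondrial Ifi27 and Ifi27l2a. Ifi27l2a and Ifi44 fell in both lines, and Ifi35 fell in shFto. Ifi27l2a in shScram was measured at 345 and 542 TPM at Pre, 38.7 and 42.9 TPM at MCE and 85.4 and 92.1 TPM at Diff. Ifi27l2a in shFto was measured at 639 and 518 TPM at Pre, 79.7 and 100.1 TPM at MCE and 266 and 198 TPM at Diff. Ifi27l2a had its low point at MCE in both lines, and the shFto libraries were the higher at MCE and Diff. Its neighbour on chromosome 12, Ifi27, showed no such fall. Ifi27 in shScram stood at 61.5 and 181 TPM at Pre, 147 and 144 TPM at MCE and 261 and 206 TPM at Diff. Ifi27 in shFto stood at 216 and 216 TPM at Pre, 223 and 243 TPM at MCE and 390.0 and 373 TPM at Diff. Ifi27 was highest in the Diff libraries of each line. Its change at induction was not called in shScram (0.46 ± 0.39 SE, adjusted p = 0.372) or in shFto (0.11 ± 0.39 SE, adjusted p = 0.873), and in shScram it became -0.31 without replicate 1 at Pre (adjusted p = 0.0566) and a called rise of 1.23 without replicate 2 at Pre (adjusted p = 1.05e-05). Ifi35, which is also released from cells as an inflammatory signal, differed widely between the 2 shScram libraries at Pre. Levels of Ifi35 in shScram were 48.7 and 192 TPM at Pre, 44.5 and 42.7 TPM at MCE and 58.7 and 51.4 TPM at Diff. Levels of Ifi35 in shFto were 165 and 155 TPM at Pre, 30.9 and 29.2 TPM at MCE and 59.3 and 53.8 TPM at Diff. The low library at Pre was the one that stands apart. With both, the change in shScram was -1.14 ± 0.48 SE, adjusted p = 0.0893, and without replicate 1 it was called as a fall with an adjusted p = 2.03e-07, a value that ranged from 2.03e-07 to 0.31 over the alternatives. An antisense gene, Gm11626, overlaps 16.8% of the exon bases of Ifi35, and since strand use is not stated in the sources used here, reads of the 2 cannot be told apart.

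Isg15 is a ubiquitin-like protein that is joined to other proteins, Herc6 joins it, Usp18 removes it and also restrains the receptor, and Trim25 activates the RNA sensor Rig-I. All 4 fell in both lines, with medians of -3.96 in shScram and -2.56 in shFto. Isg15 in shScram was measured at 273 and 824 TPM at Pre, 15.4 and 17.2 TPM at MCE and 13.3 and 17.3 TPM at Diff. Isg15 in shFto was measured at 944 and 899.9 TPM at Pre, 79.8 and 75.0 TPM at MCE and 111 and 94.9 TPM at Diff. At MCE and Diff the shFto libraries stood well above the shScram libraries, and at Pre the shScram library that stands apart was the lowest. The change at induction was -4.78 ± 0.40 SE, adjusted p = 4.71e-05 in shScram and -3.56 ± 0.40 SE, adjusted p = 0.000264 in shFto. In shScram it was -5.58 without replicate 1 at Pre and -3.99 without replicate 2, and it was called in both cases. Trim25 kept the most, at 35.4% of its Pre level in shScram and 45.5% in shFto at MCE.

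All 4 genes of the Parp group, which attach ADP-ribose or, for Dtx3l, ubiquitin alongside Parp9, fell in both lines, with medians of -2.77 in shScram and -2.36 in shFto. Parp12 in shScram stood at 95.1 and 131 TPM at Pre, 17.6 and 16.2 TPM at MCE and 22.0 and 21.5 TPM at Diff. Parp12 in shFto stood at 141 and 153 TPM at Pre, 24.1 and 24.7 TPM at MCE and 38.8 and 42.7 TPM at Diff. Parp12 was lowest at MCE in both lines, and the shFto libraries were the higher at every stage. Its change was -2.65 ± 0.15 SE, adjusted p = 5.09e-06 in shScram and -2.54 ± 0.15 SE, adjusted p = 8e-06 in shFto. Dtx3l and Parp9 overlap on opposite strands by 458 exon bases.

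The GTPases of the Gbp and Irg families attack the vacuoles in which pathogens hide, and all 6 fell in both lines. Levels of Irgm1 in shScram were 157 and 168 TPM at Pre, 13.8 and 11.5 TPM at MCE and 19.9 and 25.7 TPM at Diff. Levels of Irgm1 in shFto were 201 and 217 TPM at Pre, 23.6 and 26.2 TPM at MCE and 27.4 and 24.4 TPM at Diff. Irgm1, the most abundant, had shFto libraries above shScram at Pre and MCE and overlapping lines at Diff. It changed by -3.59 ± 0.15 SE, adjusted p = 1.09e-06 at induction in shScram and -3.02 ± 0.15 SE, adjusted p = 3.57e-06 in shFto. Gbp2 stood out, since it fell by 3.30 on the log2 scale in shScram and fell by 0.90 in shFto. Iigp1 and Gbp7 went from 48.9 and 43.0 TPM as group means at Pre to 3.45 and 3.33 TPM at MCE in shScram.

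Of the schlafens, first known as growth regulators of thymocytes, Slfn2 and Slfn8 fell in both lines and Slfn5 was not tested. Slfn2 in shScram was measured at 21.6 and 23.4 TPM at Pre, 15.8 and 15.2 TPM at MCE and 10.5 and 14.0 TPM at Diff. Slfn2 in shFto was measured at 69.0 and 64.3 TPM at Pre, 31.9 and 37.8 TPM at MCE and 34.2 and 29.0 TPM at Diff. Every shFto library of Slfn2 was above every shScram library, at any stage. Its fall was -0.51 ± 0.16 SE, adjusted p = 0.0346 in shScram and -0.92 ± 0.16 SE, adjusted p = 0.00281 in shFto. The call in shScram was lost in 7 alternatives (adjusted p = 0.0532 to 0.228), among them median-ratio scaling (-0.32), quantile normalization (-0.37) and leaving out any 1 of the shScram MCE or shFto Pre libraries. Slfn8 left 1.38% of its Pre level at MCE in shScram and 8.97% in shFto.

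All 4 secreted or surface members fell in both lines. Cxcl10 is a chemokine that draws T cells. Cxcl10 in shScram stood at 24.6 and 21.2 TPM at Pre, 0.651 and 0.655 TPM at MCE and 0.0609 and 0.197 TPM at Diff. Cxcl10 in shFto stood at 86.9 and 87.0 TPM at Pre, 10.9 and 11.4 TPM at MCE and 10.6 and 7.64 TPM at Diff. Cxcl10 was higher in every shFto library than in any shScram library of its stage, and in shScram after induction it was under 1 TPM. Its change was -3.85 ± 0.17 SE, adjusted p = 1.19e-06 in shScram and -2.86 ± 0.17 SE, adjusted p = 7.55e-06 in shFto. Ly6e, a surface protein that blocks the fusion of coronaviruses with cells, was the mildest of the group. Levels of Ly6e in shScram were 320.5 and 471 TPM at Pre, 228 and 247 TPM at MCE and 164 and 189 TPM at Diff. Levels of Ly6e in shFto were 532 and 449 TPM at Pre, 298 and 256 TPM at MCE and 591 and 508 TPM at Diff. Its fall at induction was -0.71 ± 0.20 SE, adjusted p = 0.0198 in shScram and -0.82 ± 0.20 SE, adjusted p = 0.0129 in shFto, and at Diff both shFto libraries stood well above both shScram libraries. The fall was not called in shScram without either MCE library (adjusted p = 0.0967 and 0.0715) or in a fit of its own 4 libraries (adjusted p = 0.181), nor in shFto without Pre replicate 1 or MCE replicate 2 (adjusted p = 0.0901 and 0.0999). Lgals3bp and Lgals9, a galectin-binding glycoprotein and a galectin, kept 12.7% and 29.6% of their Pre level at MCE in shScram. Cxcl10 shares 133 exon bases with Art3 on the opposite strand.

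Of the 7 remaining members, which include the nuclear body protein Sp100, the apoptosis factor Xaf1 and the helicase Helz2, 6 were tested and all 6 fell in both lines. Rtp4, a chaperone of receptors, was the most abundant. Rtp4 in shScram was measured at 204 and 163 TPM at Pre, 3.75 and 2.89 TPM at MCE and 3.66 and 6.43 TPM at Diff. Rtp4 in shFto was measured at 170.2 and 219 TPM at Pre, 26.8 and 25.5 TPM at MCE and 47.8 and 38.3 TPM at Diff. At Pre the lines overlapped, and at MCE and Diff every shFto library was several times above the shScram libraries. The change at induction was -5.41 ± 0.24 SE, adjusted p = 1.32e-06 in shScram and -2.84 ± 0.24 SE, adjusted p = 5.54e-05 in shFto. Phf11d and Xaf1 kept 1.35% and 2.01% of their Pre level at MCE in shScram, and Trim30a kept 13.8%. Helz2, at 22.3 and 62.7 TPM in the shScram libraries at Pre, changed by -2.07 ± 0.36 SE, adjusted p = 0.00263 in shScram, and by -2.79 without replicate 1 at Pre.

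The level left after the fall was described as mean TPM at MCE in percent of the mean at Pre, for the members with 5 TPM or more at Pre in that line. There were 49 such members in each line. In shScram the median member kept 7.06% at MCE and 12.3% at Diff, and in shFto 12.8% at MCE and 29.1% at Diff. Over all genes with the same minimum the median was 85.1% in shScram and 88.2% in shFto at MCE, and 97.1% and 93.3% at Diff. Under 10% of the Pre level was left at MCE for 32 of 49 members in shScram and 20 of 49 in shFto, where 1.32% and 1.02% of all such genes were as low. The least was left of Ifit3b in shScram (0.178%) and of Oas3 in shFto (1.45%), and the most of Ifitm2 in both (383.4% and 157.3%). By family, the Ifit genes kept a median of 0.75% in shScram and 5.86% in shFto, the Oas genes 2.70% and 5.34%, the GTPases 7.40% and 14.2% and the Parp genes 13.4% and 18.9%. The Ifit and Oas families kept the least in both lines. Whether the residual levels differ between lines was tested gene by gene as an interaction, below.

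**Figure D3:**
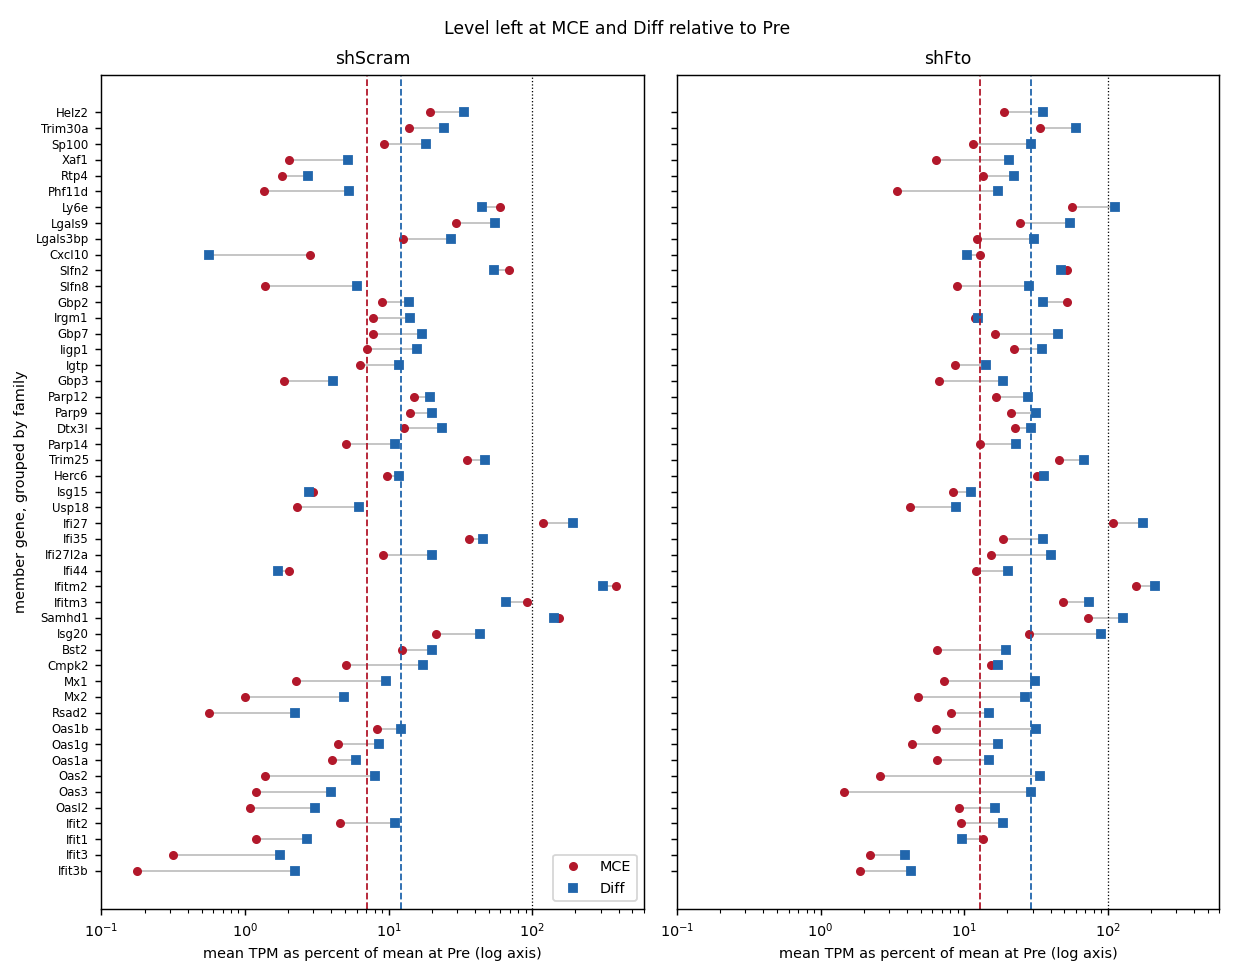
Mean TPM at MCE (red circles) and at Diff (blue squares) as a percent of the mean at Pre, on a log axis, for the 49 members per line with at least 5 TPM at Pre, in shScram (left) and shFto (right). Dashed lines mark the medians, 7.06% and 12.3% in shScram and 12.8% and 29.1% in shFto, and the dotted line marks 100%.

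From MCE to Diff a modest recovery followed. In shScram 27 of 51 members rose, where 20.0% of all genes did, and 1 fell, where 5.22% did: Cxcl10, by 0.55 on the log2 scale. Cxcl10 was under 1 TPM in shScram at both stages. Its fall was not called with no filter or with the replicate number as a block, nor without any 1 of the shScram MCE or Diff libraries. In shFto 32 rose, against 20.2% of all genes, and 1 fell, against 6.48%: Gbp2, by 0.52. Ifitm1 is among the risers of both lines, but it passed the filter only through the Diff libraries, where it was high. Its rise is therefore given no weight. The fall of Gbp2 was not called with no filter, with robust variances without a trend or with the replicate number as a block. Nor was it called without either shFto MCE library or without Diff replicate 1 of shFto. The members' medians were 0.79 in shScram and 0.82 in shFto, beside 0.23 and 0.17 over all genes, and these 2 comparisons have no library in common, though each shares its MCE libraries with the comparison at induction of its own line. All 6 GTPases rose in shScram, by 0.55 to 0.96 on the log2 scale. Oas2 rose most in shFto (3.36), and went from 3.34 and 3.15 TPM at MCE to a mean of 42.6 TPM at Diff, against 4.29 TPM in shScram at Diff. With median-ratio scaling the medians of all genes were 0.04 and 0.03, and the calls over all genes moved from 833 lower and 3190 higher to 1606 and 1963 in shScram, and from 1034 and 3222 to 1781 and 2578 in shFto. With quantile normalization all genes gave 1397 lower and 1443 higher in shScram. Here and below, some counts with a library left out have no share of all genes beside them. Those counts show no shift particular to the members. The count of members in shScram moved as well: it was 12 higher and 2 lower with quantile normalization, 20 higher and 4 lower with median-ratio scaling, and the calls in both directions numbered 18, 10 and 11 without MCE replicate 1, MCE replicate 2 and Diff replicate 2 of shScram, leaving a lone library assumed to vary like the other groups. Without Diff replicate 1 of shScram, whose labels conflict, 22 members were higher and 0 lower, and without Pre replicate 1 of shScram, which enters this comparison through the shared estimate of the spread, 37 were higher and 4 lower. In shFto the calls numbered 20 without MCE replicate 1, without MCE replicate 2 and without Diff replicate 1.

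The lines were next compared within each stage. These comparisons share no library with each other, but each shares its libraries with the stage comparisons above. At Pre members differed in both directions: 14 were higher in shFto, where 15.9% of all genes were, and 3 lower, where 12.3% were, with a median of 0.36 beside 0.08 for all genes. Those higher were Oas1a, Oas1g, Oas2, Oas3, Rsad2, Cmpk2, Bst2, Ifitm3, Usp18, Igtp, Slfn2, Cxcl10, Lgals3bp and Helz2, by 0.58 (Igtp) to 2.11 (Rsad2) on the log2 scale. Lower in shFto were Gbp2 (-1.49), Mx1 (-1.11) and Gbp3 (-0.47). Within 1 enzyme pair, Rsad2 and Cmpk2 differed by 2.11 ± 0.18 SE, adjusted p = 0.000194 and 1.67 ± 0.24 SE, adjusted p = 0.00215, while the 4 Ifit genes lay between -0.13 and 0.34 with no call, although Ifit2 was called higher (0.58, adjusted p = 0.0329) without shScram Pre replicate 1. The calls at Pre numbered 10 and 11 in all without shFto Pre replicate 1 and replicate 2, 33 without shScram Pre replicate 2, and 0 in a limma fit of these 4 libraries alone, where 13 had an unadjusted p under 0.05. Without shScram Pre replicate 1, 17 members were higher, 12 of them among the 14, where 16.1% of all genes were, and Igtp, Oas3 and Gbp3 were no longer called. Bst2 and Helz2 stayed called there, at 0.76 in place of 1.76 and 0.43 in place of 1.16, and Ifi27, Ifi35, Ifitm2 and Isg15, without a call either way, also moved by more than 1.5-fold. In the libraries at Pre fibroblast markers summed to 2614 and 4842 TPM in shScram, beside 5100 and 5134 TPM in shFto, and proliferation markers to 249.7 and 218.6 TPM beside 172.6 and 186.7 TPM, and their part in the result was not tested.

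At MCE 32 of 51 members were higher in shFto, where 10.5% of all genes were, and 1 was lower, where 7.26% were. The median was 0.99 beside 0.05 over all genes. The largest differences were those of Ifit1 (3.27 ± 0.37 SE, adjusted p = 0.000465), Cxcl10 (2.88 ± 0.17 SE, adjusted p = 2.12e-05), Rsad2 (2.69 ± 0.18 SE, adjusted p = 2.84e-05), Rtp4 (2.66 ± 0.24 SE, adjusted p = 0.000147) and Oasl2 (2.66 ± 0.17 SE, adjusted p = 2.69e-05). All 4 Ifit genes and all 4 genes of the Isg15 system were higher, and so were 5 of 6 GTPases and 5 of 7 Oas genes. The 5 Oas genes include Oasl1, which was under 1 TPM in all 4 MCE libraries and passed the filter only through the shFto Pre libraries. Its call, also among the 32, was lost without any 1 of the MCE libraries (0.89 to 0.96 on the log2 scale) and is given no weight. Samhd1 was the 1 member lower in shFto (-1.06 ± 0.12 SE, adjusted p = 0.00061), and Ifi35 (-0.52 ± 0.48 SE, adjusted p = 0.532) and Ifitm2 (-0.39 ± 0.44 SE, adjusted p = 0.629) had the next lowest values without a call, though both were called lower without replicate 1 of shScram at Pre, which enters through the shared estimate of the spread. The 3 Ifitm genes lay between -0.39 and 0.28, with no call. In these libraries fibroblast markers summed to 2825 and 2596 TPM in shScram, beside 4844 and 4444 TPM in shFto, adipocyte and proliferation markers were lower in shFto as given above, and their part in the result was not tested. Without shFto MCE replicate 1 or replicate 2, 21 and 19 members were higher and 1 lower.

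At Diff 38 of 51 members were higher in shFto, where 11.9% of all genes were, and none was lower by the limma test or at an unadjusted p under 0.05 (0 of 51), where 9.31% were. The median was 1.10 beside 0.03 over all genes. The 13 members not called were Gbp2, Irgm1, Ifi27, Ifi35, Ifit3b, Ifitm2, Oasl1, Dtx3l, Bst2, Mx1, Samhd1, Helz2 and Lgals9. Of these, Bst2, Helz2, Ifi27, Ifitm2, Lgals9 and Mx1 were called higher without replicate 1 of shScram at Pre, which enters through the shared estimate of the spread, and the first 5 of them also in a fit of the Diff libraries alone, among them Bst2 (1.39, adjusted p = 3.53e-05), Ifi27 (0.72, adjusted p = 0.00235) and Ifitm2 (0.35, adjusted p = 0.0292). Rsad2 (3.17 ± 0.18 SE, adjusted p = 7.12e-06), Cxcl10 (3.15 ± 0.17 SE, adjusted p = 5.31e-06), Ifi44 (3.09 ± 0.23 SE, adjusted p = 3.5e-05) and Oas2 (3.06 ± 0.15 SE, adjusted p = 3.88e-06) led, and of the Oas genes 6 of 7 were higher. Isg15 differed by 2.68 ± 0.40 SE, adjusted p = 0.00184, and Ly6e, not called at Pre or MCE, by 1.63 ± 0.20 SE, adjusted p = 0.000544. Adipocyte markers, given above, were far lower in the same shFto libraries. Fibroblast markers summed to 4368 and 4219 TPM in shScram at Diff, beside 6869 and 7186 TPM in shFto, and proliferation markers to 139.6 and 129.8 TPM beside 217.9 and 237.1 TPM. Mitochondrial transcripts held 7.4% and 9.2% of TPM in shScram at Diff, beside 4.6% and 4.6% in shFto. At MCE they held 6.2% and 5.7% beside 4.9% and 4.8%, and at Pre 14.5% and 7.3% beside 4.8% and 5.4%. The part of these 3 marker lists and of the mitochondrial share in the differences was not tested. Without replicate 1 of shScram at Diff, whose labels conflict, 26 members were higher and 0 lower.

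**Figure D4:**
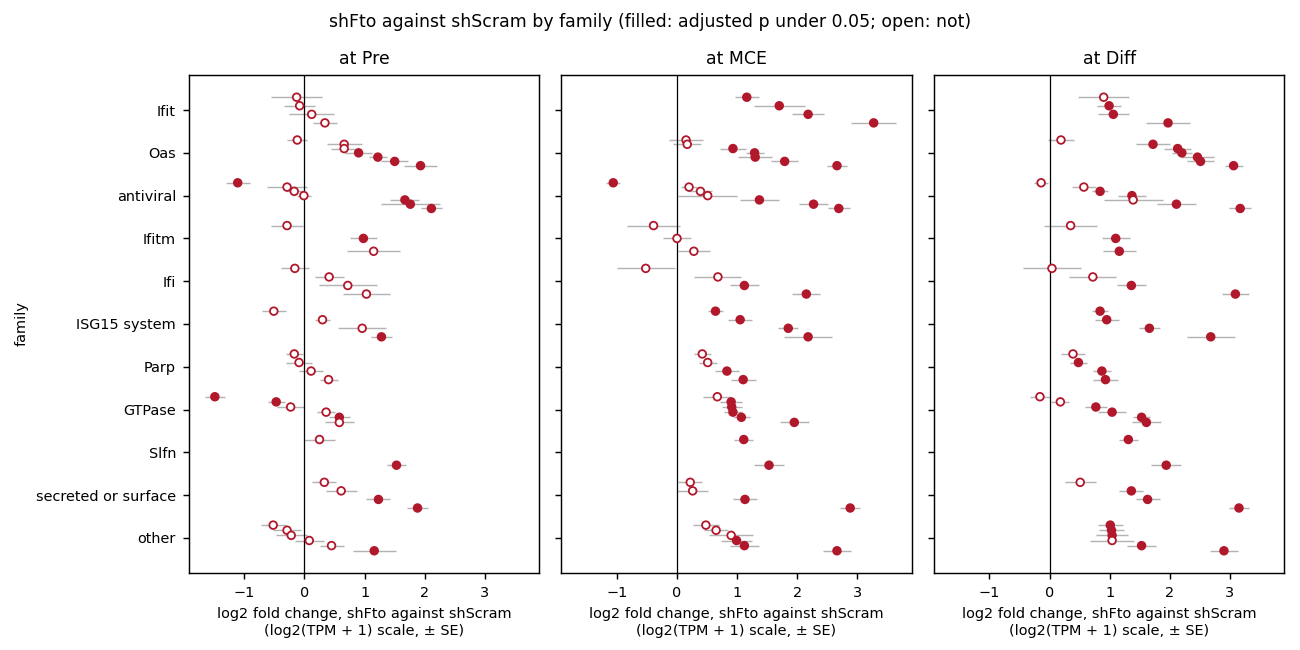
Log2 fold change of shFto against shScram for each tested member (x axis, log2(TPM + 1) scale, bars ± SE from the limma fit), by family (y axis) and stage (panels). Filled points have an adjusted p under 0.05: 17 at Pre on either side of 0, 33 at MCE of which Samhd1 is the 1 to the left, and 38 at Diff, all to the right.

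Whether the fall itself differed between the lines was tested as an interaction. The change from Pre to MCE was less negative in shFto than in shScram for 10 members, where 2.52% of all genes had a higher and 2.59% a lower interaction value, and more negative for 1, Samhd1. The 10 were Ifit1 (3.15 ± 0.52 SE, adjusted p = 0.012), Oasl2 (2.78 ± 0.24 SE, adjusted p = 0.000842), Rtp4 (2.58 ± 0.34 SE, adjusted p = 0.00431), Gbp2 (2.40 ± 0.24 SE, adjusted p = 0.00112), Ifi44 (2.30 ± 0.32 SE, adjusted p = 0.00535), Ifit3 (2.26 ± 0.37 SE, adjusted p = 0.012), Herc6, Gbp3, Mx1 and Cxcl10, and the last 4 lay between 0.99 and 1.56. The adjusted p of Cxcl10 was 0.0499, at the threshold itself. The median of all 51 was 0.58 beside -0.03 over all genes. Gbp2, Gbp3 and Mx1 are also the members that were lower in shFto at Pre. Without either shScram Pre library, members besides Samhd1 were called more negative in shFto, and more of them without replicate 2 than without replicate 1. The number of calls follows single libraries: in all 5 to 7 were called without any 1 of the MCE libraries or of the shFto Pre libraries, 24 without shScram Pre replicate 1 (21 of them higher, where 8.17% of all genes were) and 35 without shScram Pre replicate 2, and the 24 included the 11 of the full set. From MCE to Diff, 4 members rose more or fell less in shFto, where 1.47% of all genes did: Oas3 (1.96 ± 0.33 SE, adjusted p = 0.0186), Oas2 (1.76 ± 0.22 SE, adjusted p = 0.0044), Ly6e (1.42 ± 0.28 SE, adjusted p = 0.0342) and Samhd1 (0.92 ± 0.18 SE, adjusted p = 0.0311). That count was 1 without any 1 of the MCE libraries, of the shFto Diff libraries or shScram Diff replicate 2, and 17 in both directions without the one or the other shScram Pre library. Without shScram Diff replicate 1, whose labels conflict, 1 member was higher and 3 were lower.

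The genes that carry the interferon signal, none of them members, were read from the same fit (18 listed, 17 tested, Irf8 at or near 0). The ligand Ifnb1 was listed at 0 in the 6 shScram libraries, at 1.75 and 1.09 TPM in shFto at Pre, at 0.14 and 0 TPM at MCE and at 0 at Diff. It was thus seen only in 3 shFto libraries, and at very low levels. The receptor chains Ifnar1 and Ifnar2 were expressed throughout. Ifnar1 in shScram stood at 48.2 and 47.2 TPM at Pre, 46.1 and 48.4 TPM at MCE and 53.7 and 54.6 TPM at Diff. Ifnar1 in shFto stood at 41.6 and 43.2 TPM at Pre, 52.9 and 54.7 TPM at MCE and 45.1 and 43.7 TPM at Diff. All 12 libraries lay between 41.6 and 54.7 TPM, and a small rise of Ifnar1 at induction in shFto was called (0.34 ± 0.10 SE, adjusted p = 0.0323), but not without any 1 of the MCE or Diff libraries or of the shFto Pre libraries (adjusted p = 0.0522 to 0.182). Of the 3 kinases, Jak1 and Jak2 were not called at induction in either line with all libraries. Jak2 was called as a fall in shScram without Pre replicate 2 (-0.91), and as a rise in shFto (0.44) without either shScram Pre library. Tyk2 fell in shFto (-0.98 ± 0.28 SE, adjusted p = 0.029), a call that was lost without any 1 of the 4 shFto libraries at Pre and MCE (adjusted p = 0.0747 to 0.164). In shScram Tyk2 was not called with all libraries (-0.37 ± 0.28 SE, adjusted p = 0.319), whereas without replicate 1 at Pre it fell by 0.90 (adjusted p = 0.000405). The difference between the 2 changes was not called (-0.61 ± 0.40 SE, adjusted p = 0.367), and was -0.09 without that library.

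The transcription factors Stat2, Irf9 and Irf7 fell at induction in both lines, a call that none of the other scalings, fits or left-out libraries ended. Levels of Stat2 in shScram were 214 and 254 TPM at Pre, 17.1 and 15.0 TPM at MCE and 27.1 and 33.9 TPM at Diff. Levels of Stat2 in shFto were 212 and 228 TPM at Pre, 46.4 and 49.0 TPM at MCE and 134 and 133 TPM at Diff. Stat2 changed at induction by -3.78 ± 0.14 SE, adjusted p = 5.82e-07 in shScram and -2.18 ± 0.14 SE, adjusted p = 1.17e-05 in shFto. It had a like level in both lines at Pre, and after induction every shFto library was the higher, at MCE by 1.51 ± 0.14 SE, adjusted p = 0.000172. Irf9 and Irf7 fell as well, with log2 changes of Irf7 of -4.69 in shScram and -3.98 in shFto, and both were higher in shFto at MCE and Diff. Irf2 and Irf3 were not called at induction in either line with all libraries. In shFto Irf3 was called as a fall (-0.43, adjusted p = 0.00532) in a limma fit of the shFto libraries at Pre and MCE alone. Without replicate 1 of shScram at Pre, Irf2 rose (0.39, adjusted p = 0.0195) and Irf3 fell (-0.43, adjusted p = 0.00551) in shScram, and without replicate 2 Irf3 rose there (0.48, adjusted p = 0.00186). Of the inhibitors, which restrain the receptor's kinases, Socs3 rose at induction in both lines (2.23 ± 0.44 SE, adjusted p = 0.00478 in shScram and 2.13 ± 0.44 SE, adjusted p = 0.00691 in shFto). Socs3 in shScram was measured at 3.96 and 16.5 TPM at Pre, 41.2 and 44.5 TPM at MCE and 34.8 and 33.3 TPM at Diff. Socs3 in shFto was measured at 31.1 and 29.3 TPM at Pre, 142 and 128 TPM at MCE and 197 and 204 TPM at Diff. Every Socs3 library of shFto was above both shScram libraries of its stage, and the gap was largest at Diff. Its rise in shScram was 1.33 without replicate 1 at Pre, and was not called in a fit of the 4 shScram libraries at Pre and MCE alone (adjusted p = 0.105). Socs1 in shScram stood at 0.313 and 8.47 TPM at Pre, 21.3 and 21.1 TPM at MCE and 9.93 and 8.98 TPM at Diff. Socs1 in shFto stood at 13.3 and 13.0 TPM at Pre, 18.5 and 18.1 TPM at MCE and 12.2 and 12.3 TPM at Diff. Socs1 thus had its lowest value in the Pre library of shScram that stands apart. It rose at induction in shScram (2.65 ± 0.69 SE, adjusted p = 0.0153), by 1.23 without that library, and was not called in shFto (0.45 ± 0.69 SE, adjusted p = 0.686). The rise in shScram lost its call without either MCE library (adjusted p = 0.0659 and 0.0743) and in a fit of its own 4 libraries (adjusted p = 0.154), and the 0.45 in shFto was called without replicate 1 of shScram at Pre (adjusted p = 0.00273). The difference between the 2 changes was not called with all libraries (-2.20 ± 0.97 SE, adjusted p = 0.223), and was -0.78 without that library (adjusted p = 0.00759). Over the 17 genes tested, 3 fell and 3 rose at induction in shScram (median -0.18), where 26.9% of all genes fell and 12.2% rose. In shFto 6 fell and 2 rose (median -0.19), where 19.9% of all genes fell and 8.80% rose. For shFto the share of all genes is given with all libraries only. Without replicate 1 of shScram at Pre, 8 fell and 4 rose in shScram, where 35.3% and 12.9% of all genes did, and 8 fell and 4 rose in shFto. Over all the left-out libraries the falls numbered 3 to 8 in shScram and 4 to 8 in shFto. Between the lines Socs3 was higher in shFto at Pre (median of the 17 at 0.18), where 15.9% of all genes were. Ifnb1 was called as well, but it passed the filter of 1 TPM only through the 2 shFto Pre libraries. Calls of Ifnb1 in comparisons with those libraries are therefore given no weight here, also where the counts hold them. Without replicate 1 of shScram at Pre, Ifnar2, Irf2 and Socs1 differed by 0.51, 0.44 and 0.58 on the log2 scale, and Socs3 by 0.84 in place of 1.74. In a limma fit of the 4 Pre libraries alone none of the 17 was called, with an adjusted p of 0.157 for Ifnb1 and 0.248 for Socs3, while these 2 had an unadjusted p under 0.05. At MCE 5 were higher, where 10.5% of all genes were, and 1, Ifngr1, lower (median 0.18), and at Diff again 5, where 11.9% of all genes were, and Ifngr1 lower (median 0.28). With libraries left out the higher genes numbered 1 to 8 at Pre, 3 to 6 at MCE and 4 to 9 at Diff.

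**Figure D5:**
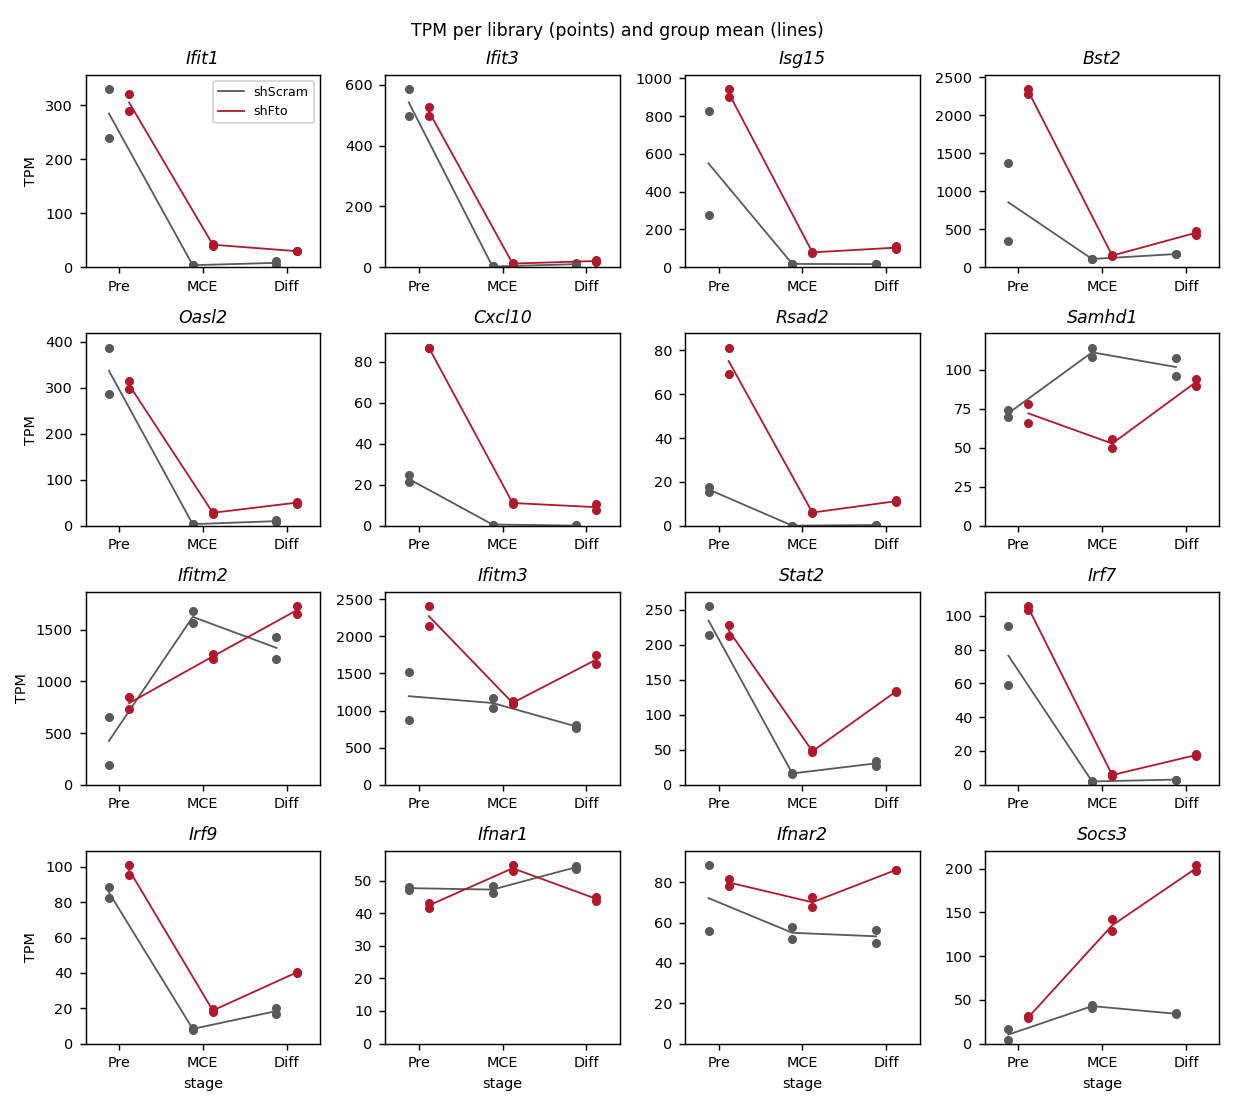
TPM of 10 members and 6 signalling genes (panels) at the 3 stages, with 1 point per library and lines through the group means, shScram in grey and shFto in red; each y axis starts at 0. Stat2, Irf7 and Irf9 drop from Pre to MCE as Ifit1 and Ifit3 do, Samhd1 and Ifitm2 do not drop in shScram, and Ifnar1 stays between 41.6 and 54.7.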

How the data were processed

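RNA of 12 libraries was measured, 2 in each of 6 groups. Per the labels and the study's methods, the authors used Trim Galore 0.6.5 for trimming and HISAT2 2.1.0 for alignment (build GRCm38), and deposited gene levels as TPM from StringTie 2.1.4 with an Ensembl annotation. Their DESeq2 results, made on counts, were not used here. TPM keeps no depth, so no counting interval was given, and strand use was not given in the sources used here. Groups came from sample titles, and 0 value columns were left unmapped. Values were taken as log2(TPM + 1), a gene was kept if 2 or more of the 12 libraries reached a TPM of 1 (15968 genes), and limma 3.58.1 in R 4.3.3 fitted 6 group means with an intensity trend and 6 residual degrees of freedom, with two-sided p-values adjusted by Benjamini-Hochberg over all genes. Calls needed an adjusted p under 0.05. The fit was tested on simulated data. Tables used Python 3.11.15, pandas 2.3.3 and numpy 2.4.6, and figures matplotlib 3.10.9. Gene positions and shared 50-base words came from a GENCODE annotation of GRCm38, and promoters from RefSeq. The members and gene lists were chosen with earlier results of these data known. A gene of the signalling list is not reported here and was left out of its counts. Values in every library are given for the most abundant member of each family, the 5 highest and 3 lowest differences between lines at MCE, members with a change at induction above -0.5 in either line, and Fto. Alternatives were another pseudocount (0.1), no filter or a mean TPM of 5, median-ratio scaling, quantile normalization, the libraries of a contrast alone, robust variances without a trend, a replicate block, fold thresholds and leaving out each library.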

Additional observations from a re-analysis of the deposited data

Results flagged for a closer look

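The change from Pre to MCE differed between shFto and shScram, by the interaction term of the limma fit across all genes, for 6 of the members whose values were given in every library. On the log2 scale, shFto minus shScram, Ifit1 differed by 3.15 (adjusted p = 0.012, and 0.000371 to 0.0636 over the alternatives). Ifit3 differed by 2.26 (adjusted p = 0.012, 0.000451 to 0.0645). Oasl2 differed by 2.78 (adjusted p = 0.000842, 1.29e-06 to 0.00986) and Rtp4 by 2.58 (adjusted p = 0.00431, 8.52e-05 to 0.0301), and both stayed past the threshold under every alternative tabulated for single members. These ranges leave out the changed filters and the fold thresholds. Cxcl10 differed by 0.99 (adjusted p = 0.0499, 0.00342 to 0.179). Samhd1 differed the other way, by -1.06 (adjusted p = 0.0126, 0.000321 to 0.078). From MCE to Diff the change was greater in shFto for Samhd1, by 0.92 (adjusted p = 0.0311, 0.00132 to 0.16), and for Ly6e, by 1.42 (adjusted p = 0.0342, 0.000482 to 0.158).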

How the results depend on the processing

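Leaving out each of the 12 libraries in turn gave 44 to 49 calls in both directions for MCE against Pre in shScram and 44 to 48 in shFto, 10 to 41 and 20 to 43 for Diff against MCE, 10 to 33, 20 to 44 and 26 to 44 for shFto against shScram at Pre, MCE and Diff, and 5 to 35 and 1 to 17 for the interactions at MCE and at Diff. The median residual level ranged from 6.23% to 7.34% in shScram and from 12% to 13.1% in shFto. Diff against MCE in shScram gave 14 calls in place of 28 with quantile normalization, 14 with an added fold over 2 and 14 at the study's thresholds (unadjusted p and fold), and in shFto 20 in place of 33 with each of the last 2. At Pre, a fit of the 4 libraries alone gave 0 calls in place of 17. The interaction at MCE gave 19 in place of 11 at the study's thresholds. The interaction at Diff gave, in place of 4, 1 with a pseudocount of 0.1, 17 in a fit of its own libraries and 9 at the study's thresholds. The residual level of shFto was 14.8% in place of 12.8% with median-ratio scaling. The cause of these shifts was not tested. Replicate numbers did not pair the libraries (correlations of replicate differences from -0.29 to 0.172 over 15 pairs of groups). With the replicate number as a block the counts were 46, 47, 25, 30, 16, 33 and 37 for the 7 comparisons, 10 for the interaction at MCE and 2 for that at Diff.

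Directions turned for 6 of 88 values of single members tabulated under the alternatives, none of them called with all libraries. Values at Pre, interactions without a call and the signalling genes are not in that count, and some of them turned too: without shScram Pre replicate 1, Ifi35 at Pre went from 0.72 to -0.26, the interaction of Helz2 from -0.26 to 0.46 and that of Ifi27 from -0.35 to 0.42. At induction in shScram, Ifitm3 became 0.13 with median-ratio scaling and ranged from -0.46 to 0.34 with libraries left out, Ifi27 ranged from -0.31 to 1.23, and Ifitm1 became 0.01 with a pseudocount of 0.1, 0.07 with median-ratio scaling and 0.22 with quantile normalization, and ranged from -0.15 to 0.15. In shFto, Oasl1 became 0.07 with quantile normalization. Between the lines, Ifitm3 at MCE became -0.08 with median-ratio scaling and -0.01 with quantile normalization (-0.09 to 0.10 with libraries left out), and Ifi35 at Diff became 0.00 (-0.05 to 0.13). Of 1578 alternative values for single genes 1433 kept their direction and side of the threshold, 92 lost a call, 36 gained one and 17 turned. No depth is known, so a member listed at 0 may be present below what these libraries could show.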
